A study of Mus musculus with 6 samples.

Results

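The endothelia gate is the part of a single-cell survey of mouse kidney in which plate wells received a cell sorted as endothelium. Its cells at day 2 of unilateral ureteric obstruction (UUO) are compared here with its cells from uninjured kidneys. UUO is the tying off of one ureter, which dams urine in that kidney, injures its tubules and leads to fibrosis. Members were chosen by the well labels "Endothelia Day 2 UUO" and "Endothelia Uninjured", and a well was kept when it held at least 1000 detected genes and 20000 reads on genes. This left 748 of 768 such wells (368 at day 2 and 380 uninjured), out of 2235 kept wells of 2292 sorted in the whole series. The cells were freed by enzymatic digestion, sorted by FACS and read by Smart-seq2, a plate method that covers whole transcripts of single cells.

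Each of the 6 plates carried cells of 3 mice: 1 healthy, 1 at day 2 and 1 at day 10 of UUO. The labels used here give no strain, sex, age, genotype or sham operation. Every well label ends in a number, 1 on the first pair of plates, 2 on plate 3, 3 on plate 4 and 4 on the last pair. Wells of 1 number and condition were assumed to come from 1 mouse. Reads of the kept wells were summed per number and condition, so that n = 4 sums against 4 unless stated otherwise, and p-values measure the spread between these sums. A condition and gate filled the same 4 plate columns on every plate, so condition and plate columns cannot be told apart. In such sums, fewer cells that hold a transcript and less of it per cell cannot be told apart either, and shares of wells are therefore given for the main genes.

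Endothelium of the kidney comprises the fenestrated capillaries of the glomerulus, the peritubular capillaries, the vasa recta, larger arteries and veins, and lymphatics. Cytokines of the interleukin 6 family bind receptors that share the chain gp130 and activate the transcription factor STAT3, which drives acute phase genes and its own feedback inhibitor SOCS3. Ligands of the TGF-beta family are secreted in a latent form held by binding proteins (LTBPs), and shape both endothelial identity and the deposition of matrix. Type I interferons induce a set of antiviral genes that resting endothelium can also express at a basal level.

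The sums held 21981703 to 44402782 reads on genes. The gate matched its label: Pecam1, an adhesion molecule of endothelium, was at or above 10 CPM (reads of a gene scaled to all gene reads of the well or sum) in 97.6 ± 1.68% of uninjured and 96.9 ± 2.51% of day 2 wells (SD, n = 4). Ehd3, a marker of glomerular endothelium, was held by 91.3, 73.4, 54.7 and 64.3% of wells in the uninjured sums and 78.1, 90.5, 53.1 and 55.9% in the day 2 sums. Plvap, of the diaphragms of fenestrated and venous endothelium, was held by 23.8, 29.7, 46.9 and 49.2% and 32.5, 9.52, 53.1 and 57.5%. Both shares varied between numbers: day 2 number 2 was mostly Ehd3-holding, and numbers 3 and 4 held more Plvap in both conditions. In the mesenchyme gate, the other gate sorted on these plates, 31.6% of uninjured and 32.0% of day 2 wells held Ehd3. A share of wells holding Ehd3 is therefore no count of glomerular endothelial cells. Transcripts of other cells were present. The summed level of 12 tubule markers was 1245, 95.6, 2835 and 2276 CPM in the uninjured sums and 212, 42.5, 151 and 301 CPM in the day 2 sums. That of 4 podocyte markers was 111, 315, 353 and 427 and 1238, 149.7, 818 and 731 CPM. Leukocyte markers summed to at most 62.6 CPM in any sum. Of 18 such measures, gene reads per spike-in read was one whose groups did not overlap (medians of 260.4, 263, 227 and 222 uninjured, 265, 381, 279 and 287 at day 2). Its exact two-sided permutation p of 0.0286 is the smallest that 4 against 4 can give, and its adjusted p over the 18 was 0.343. None of the 18 measures passed that adjustment, which a single measure could not pass even at the smallest possible p. The adjustment therefore cannot show that the make-up of the gate stayed the same.

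**Figure D1:**
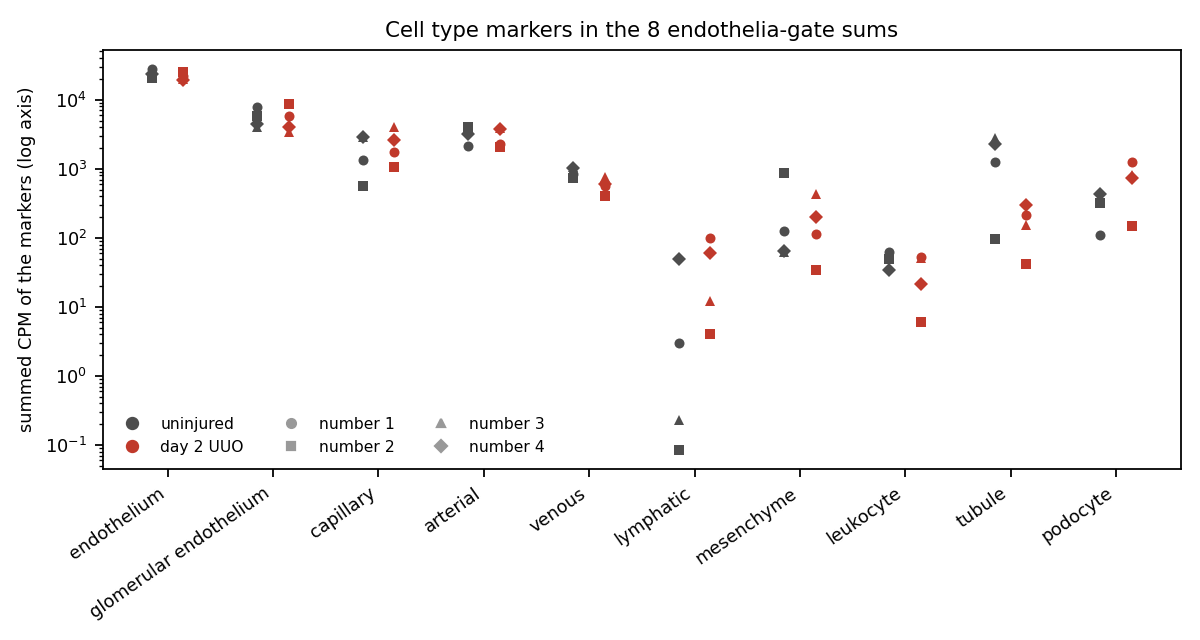
Summed CPM (log axis) of the marker lists of 10 cell types in each of the 8 endothelia-gate sums, grey for uninjured and red for day 2 UUO, with a symbol for each number. Endothelium markers lie at 19268 to 27730.4 CPM in every sum, and tubule markers are at 1245 to 2835 CPM in 3 of the 4 uninjured sums against 42.5 to 301 CPM at day 2.

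At day 2, 16 of 14026 tested genes rose (0.114%) and 5 fell (0.0356%) at an adjusted p under 0.05 (edgeR quasi-likelihood F test with the number as a block, Benjamini-Hochberg over all genes). The genes that rose were led by Serpina3n, Adamts4 and Lrg1 and included Stat3 and a collagen IV chain, and those that fell were Tgfb2, Cmpk2, Rsad2, Gas6 and Tinagl1. At an unadjusted p under 0.05, 612 genes were higher (4.36%) and 583 lower (4.16%), 1195 in all (8.52%). In 320 genes (2.28%) all day 2 sums lay above all uninjured sums, and in another 320 (2.28%) below. The number of calls rests on the sums in the fit: without numbers 1, 2, 3 or 4 it was 2, 11, 3 or 0, with 888 genes at an unadjusted p under 0.05 where number 4 was left out. With only the 8 day 2 and uninjured sums in the fit, without the day 10 sums, it was 2, and without the number as a block it was 12, of which 11 were among the 21. DESeq2's Wald test called 439 genes. Without the 207 uninjured and 101 day 2 wells that held at least 100 CPM of tubule markers the number of calls was also 0, with 994 genes at an unadjusted p under 0.05. This took out 51 of 126, 9 of 64, 50 of 64 and 97 of 126 wells of uninjured numbers 1 to 4. At day 2 it took out 42 of 114, 7 of 63, 23 of 64 and 29 of 127. The part of this uneven loss of wells in the 0 calls was not tested. In that fit the 21 genes kept their directions, with Lrg1 at 2.97, Stat3 at 1.45 and Tgfb2 at -1.78 on the log2 scale.

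**Figure D2:**
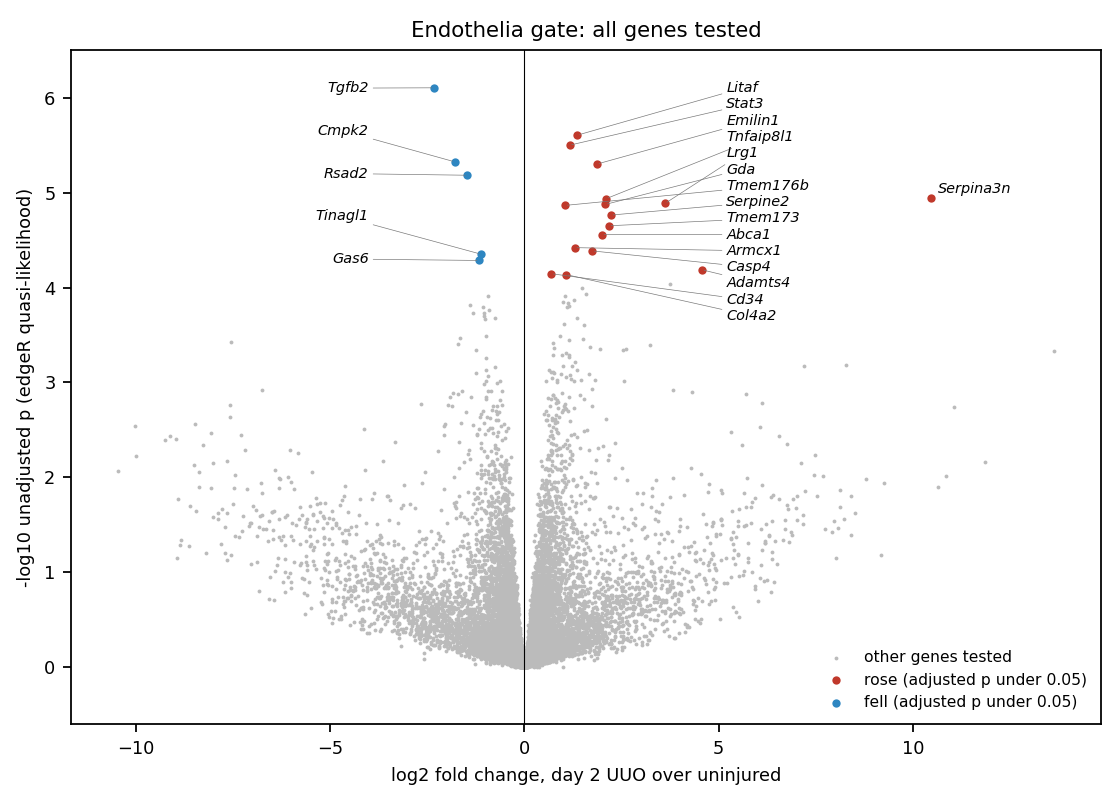
Log2 fold change of day 2 UUO over uninjured (horizontal) against -log10 of the unadjusted p (vertical) for the 14026 genes tested in the endothelia gate, with the 16 genes that rose in red and the 5 that fell in blue. Tgfb2, at -2.32, has the smallest p, and Serpina3n, at 10.47, stands to the right of every other gene past the threshold.

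The acute phase and STAT3 list held 3 of the genes that rose. Lrg1, which encodes leucine-rich alpha-2-glycoprotein, a secreted protein that modifies TGF-beta signalling in endothelium, lies on chromosome 17, 56119678 to 56122001 of mm10. It stood at 45.5, 28.3, 9.69 and 43.2 CPM in uninjured sums 1 to 4 and at 324, 386, 459 and 382 CPM at day 2. Every day 2 sum was thus at least 324 CPM and no uninjured sum above 45.5 CPM, a log2 change of 3.62 ± 0.48 (SE, edgeR adjusted p = 0.0174). Serpina3n, a secreted serine protease inhibitor of the acute phase, had 2, 3, 1 and 5 reads in the uninjured sums and 1078, 2109, 2580 and 10473 at day 2. On the CPM scale this was 0.0473, 0.128, 0.0457 and 0.12 against 26.7, 92.9, 106 and 226. The fitted log2 change of 10.47 ± 1.37 (SE, edgeR adjusted p = 0.0174) is no measure of size, because it rests on the few uninjured reads. Stat3 itself (chromosome 11, 100885098 to 100939540) was at 229.6, 259, 167 and 228 CPM uninjured and 469.7, 572, 465 and 462 CPM at day 2. The day 2 sums of Stat3 were all higher, with a log2 change of 1.17 ± 0.13 (SE, edgeR adjusted p = 0.0141).

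The receptor genes described next did not pass the threshold. Osmr, the oncostatin M receptor subunit, was at 80.0, 64, 60.3 and 81.1 CPM uninjured and 176, 239, 173 and 162 CPM at day 2, without overlap (1.35 ± 0.25 (SE, edgeR adjusted p = 0.0754)). Lifr, which pairs with gp130 for leukaemia inhibitory factor, had a log2 change of 0.76 ± 0.15 (SE, edgeR adjusted p = 0.112), and the gp130 gene Il6st one of 0.32 ± 0.23 (edgeR adjusted p = 0.807). Of the list's 17 tested members, 12 were higher and 0 lower at an unadjusted p under 0.05, against 4.36% and 4.16% of all genes. The groups were apart in the higher direction in 9 and in the lower in 0, against 2.28% of all genes in each direction. The median log2 change was 1.51, against -0.02 over all genes. Named after their values were seen, the others among the 12 were Socs3 (502 to 1797 CPM in the means), Serpina3g (97.7 to 537 CPM), Il4ra (161 to 450.3 CPM), Bcl3 (36 to 94.8 CPM), Cebpd (119.6 to 232 CPM), Lcn2 (0.2 to 15.3 CPM) and C3. None of these passed the threshold, and Serpina3n and Serpina3g are similar in sequence and may share reads. Serpina3n, Lcn2 and C3 lay near 0 CPM in the uninjured sums, so they could be counted only as higher. The list was chosen with results of these data known and is no independent evidence of a direction.

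Adamts4, Serpine2 and Emilin1, which encode secreted proteins, also rose. Adamts4, a secreted metalloproteinase that cleaves aggrecan and versican, was at 1.47, 1.71, 3.61 and 11.4 CPM uninjured and 37.1, 183, 51.8 and 98.7 CPM at day 2. The groups did not overlap, and the log2 change was 4.57 ± 0.73 (SE, edgeR adjusted p = 0.048). Serpine2 (protease nexin-1), an inhibitor of thrombin and plasminogen activators, was at 125, 43.6, 236 and 113 CPM uninjured and 446, 453, 701 and 621 CPM at day 2, all higher (2.24 ± 0.31 (SE, edgeR adjusted p = 0.0202)). Emilin1, a glycoprotein of elastic fibres, went from 238, 154, 126 and 107 CPM to 499.6, 752, 552 and 401 CPM, again without overlap (1.87 ± 0.22 (SE, edgeR adjusted p = 0.0141)).

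Col4a2, a chain of the main collagen of basement membranes, was at 483, 340.3, 372 and 348 CPM uninjured and 696, 691, 1176 and 738 CPM at day 2 (1.08 ± 0.17 (SE, edgeR adjusted p = 0.0488)). Number 3 stood above the other day 2 sums, which lay at 691 to 738 CPM. Its partner chain Col4a1 starts beside it on the opposite strand of chromosome 8, where the annotated genes run from 11198423 to 11312826 and from 11312805 to 11449287. Col4a1 was at 603, 364, 518 and 539 CPM and 890.0, 846, 1720.3 and 1159.5 CPM. Those groups did not overlap either, but the adjusted p was 0.0678 (edgeR; log2 change 1.16 ± 0.20). In the basement membrane list, 6 of its 18 tested members were higher and 1 lower at an unadjusted p under 0.05, with a median log2 change of 0.50. Of these, 1 rose. Log2 changes with SE and adjusted p were 0.52 ± 0.13 (0.199) for the collagen-binding protein Sparc and 0.72 ± 0.22 (0.337) for nidogen 1. In the list of matrix proteases and inhibitors, 6 of its 17 tested members were higher and 0 lower at an unadjusted p under 0.05, with a median log2 change of 0.52. Of these, 2 rose. Timp1, an inhibitor of matrix metalloproteinases, went from 6.96 ± 5.18 to 37.1 ± 16.1 CPM (SD, n = 4; 2.55 ± 0.51 (SE, edgeR adjusted p = 0.113)). Adamts9 went from 6.01 ± 4.19 to 28 ± 9.2 CPM (edgeR adjusted p = 0.271).

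**Figure D3:**
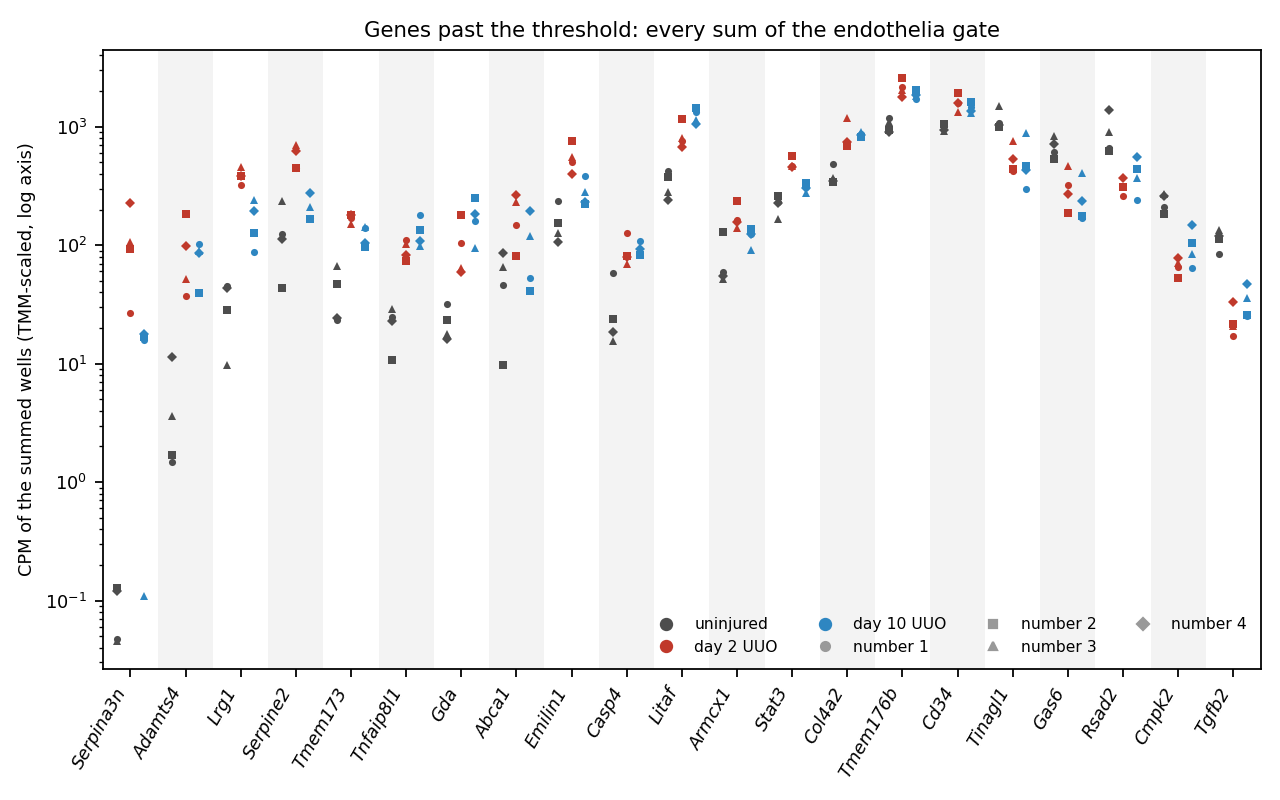
CPM (TMM-scaled, log axis) of the 21 genes past the threshold in each endothelia-gate sum, in grey for uninjured, red for day 2 UUO and blue for day 10 UUO, with a symbol for each number. The red and grey points do not overlap except for Abca1, whose highest uninjured sum (86.1 CPM) exceeds its lowest day 2 sum (81.5 CPM).

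Of the other genes that rose, Tmem173, which encodes STING, the adaptor that answers cytosolic DNA, was at 23.5, 46.8, 67 and 24.2 CPM uninjured and 170.0, 180.4, 150.5 and 179 CPM at day 2. The day 2 sums lay close together above all uninjured sums (2.18 ± 0.31 (SE, edgeR adjusted p = 0.0241)). Casp4, the inflammatory caspase also called caspase-11 that senses bacterial lipopolysaccharide in the cytosol, was at 57.8, 23.7, 15.6 and 18.6 CPM and 126, 81.2, 69 and 80.2 CPM, without overlap (1.75 ± 0.26 (SE, edgeR adjusted p = 0.0361)). Litaf, a membrane protein of late endosomes first described as induced by lipopolysaccharide, went from 426, 374, 282 and 240.4 CPM to 755, 1167, 809 and 673 CPM, all higher (1.37 ± 0.15 (SE, edgeR adjusted p = 0.0141)). Tnfaip8l1, of the family of a protein induced by tumour necrosis factor, was at 24.8, 10.8, 28.9 and 23 and 111, 74, 102 and 83.4 CPM, also apart (2.11 ± 0.28 (SE, edgeR adjusted p = 0.0174)).

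Both members of a pair of neighbouring interferon-induced genes fell. Rsad2, which encodes the antiviral enzyme viperin (chromosome 12, 26442746 to 26456452), was at 659, 630.3, 906 and 1391 CPM uninjured and 261, 310.1, 309 and 372 CPM at day 2. Every day 2 sum was lower (-1.46 ± 0.18 (SE, edgeR adjusted p = 0.0154)). Cmpk2, a mitochondrial nucleotide kinase whose gene lies beside Rsad2 (26469204 to 26479837), was at 211, 184, 271 and 262 CPM uninjured and 65.2, 52.7, 71.3 and 78.5 CPM at day 2, without overlap (-1.79 ± 0.21 (SE, edgeR adjusted p = 0.0141)). In the list of interferon response and nucleic acid sensing, 3 of its 24 tested members were higher and 6 lower at an unadjusted p under 0.05, with a median log2 change of -0.20. Tmem173 rose and Rsad2 fell. Bst2 (tetherin), which holds budding viruses at the membrane, had 383 ± 132 CPM uninjured and 224 ± 60.8 CPM at day 2 (SD, n = 4; -0.75 ± 0.16 (SE, edgeR adjusted p = 0.136)). Ddx58, the RNA sensor RIG-I, had a positive log2 change of 0.69 ± 0.19 (SE, edgeR adjusted p = 0.271). For antigen presentation by MHC, 0 of its 15 tested members were higher and 4 lower at an unadjusted p under 0.05, with a median log2 change of -0.17. None passed the threshold. B2m, the light chain of MHC class I, had 5075, 5805, 6354 and 6339 CPM uninjured and 4283, 4632, 4878 and 4751 CPM at day 2, a small difference without overlap (-0.34 ± 0.10 (SE, edgeR adjusted p = 0.311)). Log2 changes with SE and adjusted p were -0.49 ± 0.18 (0.448) for H2-T23, -0.56 ± 0.20 (0.448) for the immunoproteasome subunit Psmb9 and -0.42 ± 0.17 (0.534) for tapasin (Tapbp).

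Tgfb2, one of the TGF-beta ligands (chromosome 1, 186622792 to 186705989), had the smallest p of all genes. It was at 84.7, 114, 134 and 121 CPM uninjured and 17.2, 21.4, 20.7 and 33.2 CPM at day 2, so that every day 2 sum was below every uninjured one (-2.32 ± 0.23 (SE, edgeR adjusted p = 0.0111)). Genes for 2 proteins that hold latent TGF-beta had lower values without passing the threshold. Ltbp1 was at 185, 181, 184 and 206 CPM uninjured and 75.8, 49.3, 61.3 and 43.7 CPM at day 2, and Ltbp4 at 415, 896, 778 and 642 and 245, 238, 322 and 226 CPM. Neither pair of groups overlapped, with log2 changes of -1.70 ± 0.34 (SE, edgeR adjusted p = 0.111) and -1.39 ± 0.24 (SE, edgeR adjusted p = 0.0678). The receptor Tgfbr2 had a positive change of 0.75 ± 0.16 (SE, edgeR adjusted p = 0.145) with overlapping sums. In the TGF-beta and BMP list, 2 of its 22 tested members were higher and 7 lower at an unadjusted p under 0.05, with a median log2 change of -0.47. Tgfb2 fell and no member rose. The endothelial co-receptor Eng (-0.34), the receptor Acvrl1 (-0.50), the ligand Bmp6 (-1.10) and the BMP target Id1 (-0.71) made up the other lower members at that p. Inhbb, of the activins, was higher at 2.41. None of these 5 passed the threshold, and they were named after their values were seen.

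Among lipid genes, Abca1, which exports cholesterol to apolipoproteins, was at 46.4, 9.68, 65.6 and 86.1 CPM uninjured and 148, 81.5, 230.1 and 266 CPM at day 2. The groups overlapped, yet day 2 was higher within each of the 4 numbers (2.00 ± 0.29 (SE, edgeR adjusted p = 0.0278)). In the list of fatty acid uptake and lipid transport, 6 of its 15 tested members were higher and 1 lower at an unadjusted p under 0.05, with a median log2 change of 0.50. Of these, Abca1 alone rose. Lipoprotein lipase (Lpl) had 837, 650.1, 444 and 545 CPM and 1305, 2117, 809 and 1032 CPM, and its capillary anchor Gpihbp1 239, 173, 475 and 238 and 428, 546, 917 and 544 CPM. The lipoprotein receptor Scarb1 had 174, 149, 191 and 217 and 310.0, 327, 604 and 417 CPM. All 3 were higher at day 2 within each number, and Scarb1 alone of them without overlap. None passed the threshold, with log2 changes (SE, adjusted p) of 1.02 ± 0.19 (0.0823), 1.14 ± 0.22 (0.106) and 1.15 ± 0.24 (0.117). In the cholesterol synthesis list, 0 of its 16 tested members were higher and 6 lower at an unadjusted p under 0.05, with a median log2 change of -0.61. None passed the threshold. Its enzyme Hmgcs1 was at 136, 80.7, 119 and 134 CPM uninjured and 84.8, 43.4, 33.2 and 84.1 CPM at day 2 (-0.99 ± 0.23 (SE, edgeR adjusted p = 0.176)). Insig1, which retains the sterol sensor in the endoplasmic reticulum, was at 82.9, 73.7, 55 and 72.8 and 53.4, 23.2, 17.2 and 44.6 CPM. The groups of Insig1 did not overlap (-1.12 ± 0.31 (SE, edgeR adjusted p = 0.269)). Msmo1 and Srebf2 had log2 changes of -0.91 ± 0.29 (0.379) and -0.42 ± 0.15 (0.457).

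The remaining genes past the threshold have varied roles. Gda, the enzyme guanine deaminase, was at 31.8, 23.3, 17.6 and 16.1 CPM uninjured and 104, 179, 64.1 and 59.4 CPM at day 2 (2.09 ± 0.28 (SE, edgeR adjusted p = 0.0174)). Armcx1, a protein of the outer mitochondrial membrane, was at 59.9, 129, 51.8 and 55.5 CPM and 163, 237, 140.5 and 158 CPM (1.30 ± 0.19 (SE, edgeR adjusted p = 0.0355)). Both were apart, and uninjured number 2 (129 CPM) stood above the other uninjured sums of Armcx1. Tmem176b, a membrane protein, had 1196, 936, 1108 and 901 CPM uninjured and 2188, 2569, 2058 and 1800.3 CPM at day 2 (1.05 ± 0.14 (SE, edgeR adjusted p = 0.0174)). Tmem176a beside it, whose annotated span overlaps that of Tmem176b on the opposite strand, had 579, 432, 528 and 396 and 879, 1255, 1091 and 748 CPM (1.04 ± 0.18 (SE, edgeR adjusted p = 0.066)). Whether counting used strand is not given in the sources used here, so reads in the overlap of these genes cannot be assigned. Cd34, a sialomucin of endothelium, went from 1022, 1065, 927 and 937 CPM to 1573, 1938, 1339 and 1601 CPM, the smallest change among the called genes (0.70 ± 0.11 (SE, edgeR adjusted p = 0.0488)).

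The other genes that fell encode secreted proteins. Gas6, the ligand of the receptors Tyro3, Axl and Mertk, was at 618, 530.1, 829 and 721 CPM uninjured and 324, 189, 471 and 272 CPM at day 2, all lower (-1.16 ± 0.18 (SE, edgeR adjusted p = 0.0404)). Gas6 is also 1 of the 4 venous markers, whose sum was 855, 744, 1072 and 1025 CPM uninjured and 572, 409, 759 and 605 CPM at day 2 (exact permutation p = 0.0571, adjusted p = 0.343). That sum is mostly Gas6, with means of 679 of 924 CPM uninjured and 317 of 586 CPM at day 2. Of the other markers, Nr2f2 had means of 17.4 CPM uninjured and 25.1 CPM at day 2, and Ephb4 228 and 245 CPM. Ackr1 was 0 in both and could not be lower. A change in the share of venous cells was not tested. Tinagl1, a glycoprotein of the matrix, was at 1078, 996, 1495 and 1026 CPM and 427, 437, 759 and 531 CPM, without overlap (-1.12 ± 0.17 (SE, edgeR adjusted p = 0.0367)).

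The genes next in order of p missed the threshold at adjusted p of 0.058 to 0.0678 (edgeR). Clca1, a regulator of chloride channels, was at 5.34, 0.682, 2.97 and 2.48 CPM uninjured and 31.4, 42.9, 18.3 and 57.6 CPM at day 2. Clec14a, a lectin of endothelium that binds matrix, was at 688, 721, 877 and 714 and 373, 337, 405 and 463 CPM. Entpd1 (CD39), which degrades extracellular ATP, had 147, 231, 153 and 234 and 389, 306, 489.8 and 467 CPM. In these 3 genes the sums did not overlap. Mtmr11, Tmem252, Fam167b and Ctla2b had log2 changes of 1.27, 1.60, 0.99 and 1.47, of which Ctla2b alone had overlapping sums.

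Genes of inflammation were tested singly and counted by list, and 1 gene in them, Cd34 of the leukocyte adhesion list, passed the threshold. Of that list, 3 of its 11 tested members were higher and 2 lower at an unadjusted p under 0.05, with a median log2 change of 0.45. E-selectin (Sele), which captures leukocytes, was at 45.3, 37.2, 8.87 and 1.15 CPM uninjured and 251, 464, 107 and 316 CPM at day 2, apart but widely spread (3.82 ± 0.88 (SE, edgeR adjusted p = 0.169)). The adhesion molecule Mcam had a log2 change of 0.74 ± 0.17 (0.174) and Icam2 one of -0.53 ± 0.14 (0.217). For chemokines and cytokines, 4 of its 13 tested members were higher and 1 lower at an unadjusted p under 0.05, with a median log2 change of 0.62. Cxcl10, a chemoattractant of T cells, was at 9.22, 0.0426, 0.0914 and 7.7 CPM and 21.1, 117, 12 and 26.3 CPM, with day 2 number 2 far above the others (3.83 ± 1.23 (SE, edgeR adjusted p = 0.379)). Cxcl12 had 42.1, 174, 124 and 204 and 31.6, 2.82, 52.6 and 44.7 CPM, lower at day 2 within each number (-2.56 ± 0.80 (SE, edgeR adjusted p = 0.356)). The changes of Cx3cl1 and the alarmin Il33 were 0.62 ± 0.21 (0.414) and 1.69 ± 0.59 (0.441).

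For the NF-kB pathway, 4 of its 15 tested members were higher and 0 lower at an unadjusted p under 0.05, with a median log2 change of 0.33. The receptor Tnfrsf1a went from 465 ± 125 to 760.3 ± 61 CPM (SD, n = 4; 0.74 ± 0.15 (SE, edgeR adjusted p = 0.117)). The changes of Nfkbiz, Nfkbie and the subunit Rela were 0.80 ± 0.20 (0.211), 1.31 ± 0.48 (0.466) and 0.42 ± 0.17 (0.511). For complement and coagulation, 6 of its 17 tested members were higher and 0 lower at an unadjusted p under 0.05, with a median log2 change of 0.59. Tissue factor pathway inhibitor (Tfpi) was at 106, 85, 51.3 and 84.4 CPM uninjured and 177, 207, 178 and 112 CPM at day 2, apart (1.08 ± 0.26 (SE, edgeR adjusted p = 0.189)). The clotting factor F8 had a change of 1.09 ± 0.30 (0.258). Complement C3 had 0.165, 0.128, 0.0457 and 1.06 CPM uninjured and 1.56, 57, 4.31 and 10.6 CPM at day 2 (edgeR adjusted p = 0.225). Of its day 2 reads, 64.3% came from 1 well.

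For growth factors and their binding proteins, 3 of its 15 tested members were higher and 1 lower at an unadjusted p under 0.05, with a median log2 change of 0.09. None passed the threshold. Igfbp3 was at 396, 136, 905 and 1179 CPM uninjured and 2121, 122, 2703 and 1966 CPM at day 2, low in both number 2 sums (1.21 ± 0.42 (SE, edgeR adjusted p = 0.441)). Igfbp7 and Pdgfb, the platelet-derived growth factor chain by which endothelium recruits pericytes, had changes of 1.00 ± 0.38 (0.481) and -0.44 ± 0.19 (0.549). Spp1 (osteopontin) was at 69.7, 5.8, 84.4 and 41 CPM and 559, 1230.0, 777 and 1834 CPM, higher in all day 2 sums (4.54 ± 1.43 (SE, edgeR adjusted p = 0.364)). It was held by 295 of 368 day 2 wells against 47 of 380 uninjured wells, with 34.4% of the day 2 reads in 1 well. By number, 89.5, 25.4, 95.3 and 91.3% of day 2 wells held it, fewest in number 2, and in 1 of the day 2 sums a single well gave 92.9% of the reads. In the mesenchyme gate of the same plates, Spp1 was held by a like share, 294 of 366 day 2 wells against 67 of 364 uninjured wells. Injured tubule cells make osteopontin too. The injury marker of the proximal tubule, Havcr1, had 0 reads in all uninjured sums and 13, 13.6, 16.6 and 23.4 CPM at day 2 (edgeR adjusted p = 0.114). In the same comparison Kap, an abundant proximal tubule transcript, was at 126, 1.66, 918 and 1084 CPM uninjured and 119, 2.6, 30.5 and 56.7 CPM at day 2 (-3.00 ± 1.61 (SE, edgeR adjusted p = 0.697)). The part of tubule RNA in these levels was not tested.

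For endoplasmic reticulum stress and the amino acid response, 5 of its 17 tested members were higher and 0 lower at an unadjusted p under 0.05, with a median log2 change of 0.47, with no call. Xbp1, a transcription factor of the unfolded protein response, was at 322, 376, 286 and 323 CPM uninjured and 578, 845, 438 and 418 CPM at day 2, apart (0.75 ± 0.15 (SE, edgeR adjusted p = 0.109)). Manf, Hspa5 and Pdia4 had changes of 0.69 ± 0.20 (0.289), 0.63 ± 0.22 (0.441) and 0.51 ± 0.21 (0.536). Identity genes were mixed. For glomerular endothelial identity, 2 of its 10 tested members were higher and 2 lower at an unadjusted p under 0.05, with a median log2 change of 0.01. Sost, an inhibitor of Wnt signalling, was at 30.9, 80.6, 14.4 and 46.3 CPM uninjured and 6.91, 0.352, 0.738 and 4.19 CPM at day 2, apart (-4.09 ± 1.27 (SE, edgeR adjusted p = 0.348)). Mapt and Tbx3 had changes of -0.45 ± 0.16 (0.441) and 0.41 ± 0.19 (0.581). For arterial identity, 1 of its 11 tested members were higher and 2 lower at an unadjusted p under 0.05, with a median log2 change of -0.13. Hey1 and Ssu2 had changes of 0.85 ± 0.22 (0.213) and -1.13 ± 0.51 (0.577). For solute carriers, 2 of its 12 tested members were higher and 2 lower at an unadjusted p under 0.05, with a median log2 change of -0.31. The taurine transporter Slc6a6 was at 1401, 1447, 2104 and 1709 CPM and 626, 615, 1064 and 1032 CPM, apart and lower (-1.03 ± 0.19 (SE, edgeR adjusted p = 0.0752)). The prostaglandin transporter Slco2a1 was at 652, 524, 334 and 433 and 984, 1425, 669 and 769 CPM, apart and higher (0.99 ± 0.24 (SE, edgeR adjusted p = 0.192)). Slc9a3r2 and Slc3a2 had changes of -0.57 ± 0.13 (0.169) and 0.65 ± 0.16 (0.186). The pan-endothelial genes Cdh5 and Kdr, with Pecam1, Ehd3 and Plvap, had log2 changes between -0.07 and 0.14, none past the threshold.

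In the other 14 lists fewer than 25% of tested members reached an unadjusted p under 0.05, against 8.52% of all genes, and no member passed the threshold. The counts higher and lower were 2 and 2 of 22 for VEGF, angiopoietin and tip cell genes (median -0.03), and 2 and 0 of 13 for Notch signalling (0.09). They were 0 and 1 of 17 for the flow response and vasoactive genes (-0.14), and 3 and 0 of 17 for junctions and fenestrae (0.06). They were 1 and 2 of 13 for endothelial-to-mesenchymal transition (-0.68), and 2 and 1 of 21 for the cytoskeleton (0.12). Next came 2 and 0 of 13 for integrins (-0.00), and 2 and 2 of 24 for the cell cycle (0.11). Immediate early and dissociation stress genes had 1 and 1 of 16 (0.26), and p53 targets and apoptosis 1 and 1 of 15 (0.03). Hypoxia and glycolysis had 1 and 2 of 21 (0.13), antioxidant and metallothionein genes 2 and 1 of 16 (0.02), and ribosome biogenesis 1 and 1 of 15 (0.09). Oxidative phosphorylation had 0 of 21 in either direction by edgeR at an unadjusted p under 0.05 (median -0.07).

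**Figure D4:**
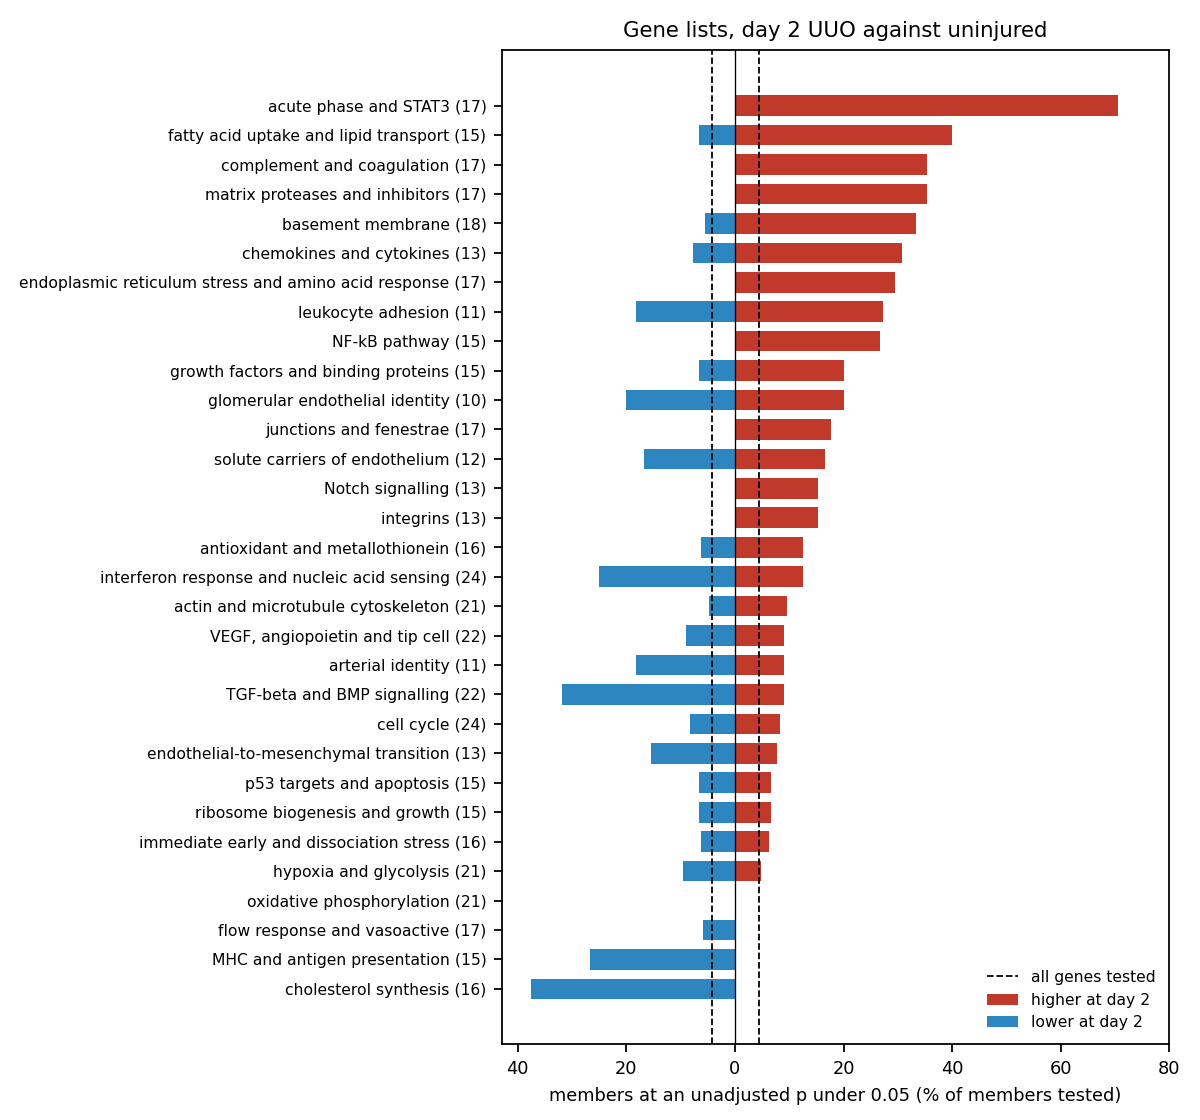
Percent of each list's tested members (number in brackets) that were higher (red, to the right) or lower (blue, to the left) at day 2 at an unadjusted p under 0.05, with dashed lines at the shares of all genes tested, 4.36% and 4.16%. The acute phase and STAT3 list reaches furthest to the right with 12 of 17 members, and the cholesterol synthesis list furthest to the left with 6 of 16.

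Shares of wells at or above 10 CPM show in how many wells a transcript was found (intervals cover counting error only, without a test). Transcripts of other cells reach that level too. The tubule transcript Kap was held by 67.6% of uninjured endothelia wells and 64.3% of uninjured mesenchyme wells. A well at that level is therefore not known to hold a cell that makes the transcript. Lrg1 was held by 44 of 380 uninjured wells (11.6%, exact 95% interval 8.54 to 15.2%) and 191 of 368 day 2 wells (51.9%, 46.7 to 57.1%). Stat3 was held by 209 of 380 uninjured wells (55%, exact 95% interval 49.8 to 60.1%) and 306 of 368 day 2 wells (83.2%, 78.9 to 86.8%). Serpina3n was held by 0 of 380 uninjured wells (0%, exact 95% interval 0 to 0.966%) and 40 of 368 day 2 wells (10.9%, 7.88 to 14.5%), and 30.2% of its day 2 reads came from 1 well. In the mesenchyme gate of the same plates, day 2 wells held Lrg1 in 4.1%, Stat3 in 92.9% and Serpina3n in 25.7%. Lrg1 and Stat3 were thus widespread among day 2 wells of the endothelia gate, and Serpina3n was found in few. Of the genes that fell, Tgfb2 went from 72 to 32 wells, Rsad2 from 244 to 150 and Cmpk2 from 134 to 65. The median level within holding wells differed too, for Rsad2 from 929 to 487 CPM and for Lrg1 from 220.4 to 429 CPM.

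**Figure D5:**
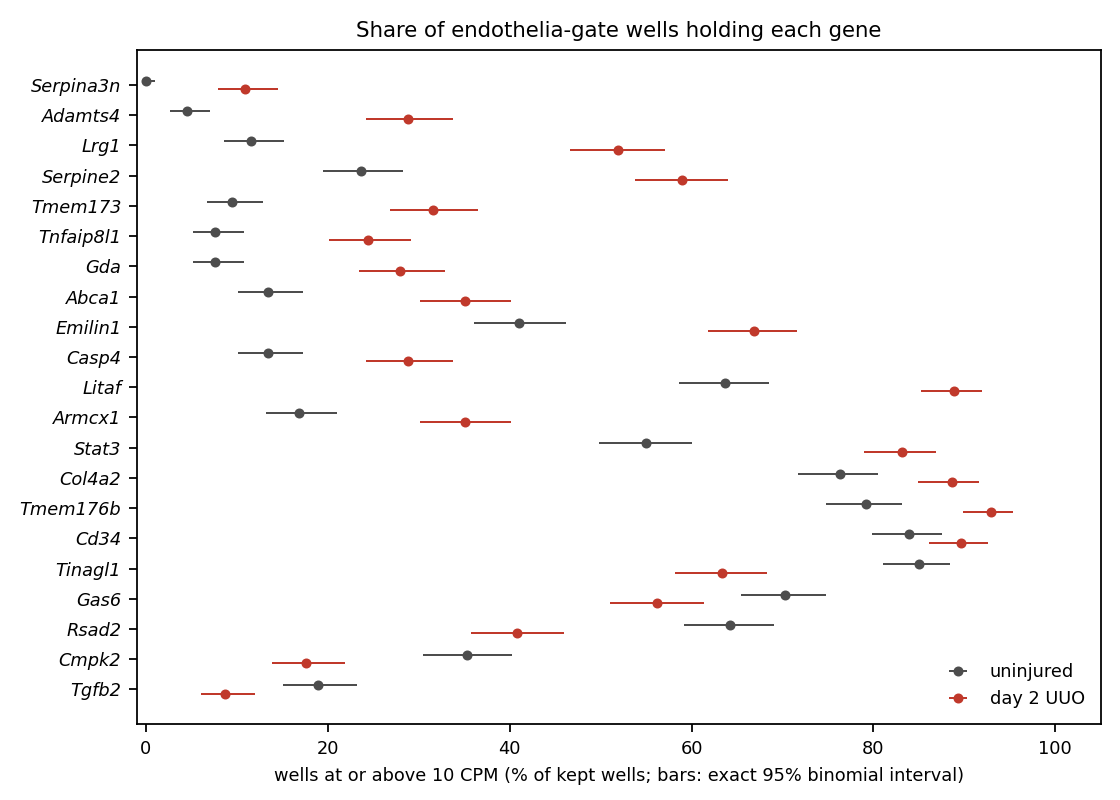
Percent of kept endothelia-gate wells at or above 10 CPM of each of the 21 genes past the threshold, in grey for 380 uninjured and red for 368 day 2 UUO wells, with exact 95% binomial intervals that cover counting error only. Lrg1 moves from 11.6 to 51.9% and Rsad2 from 64.2 to 40.8%.

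Wells were also divided at 10 CPM of Ehd3, into 529 at or above and 219 below. This is a range of 1 gene and not a cell type, and 113 wells lay between 3 and 30 CPM. Sums of at least 10 wells were used, which left out day 2 number 2 among the wells below, so that class compares 3 day 2 sums with 4 uninjured sums. In the wells at or above, 25 genes passed the threshold, of which 15 were among the 21, and in the wells below 0 did (edgeR; 530 at an unadjusted p under 0.05). A test of the difference between the classes took both classes' sums of a number and condition as independent, though the same mouse was assumed to give both. It found 1 gene of 14612 (0.00684%), Lifr. Its mean levels from uninjured to day 2 were 1484 to 2874 CPM in the wells at or above and 726 to 375 CPM in the wells below. In the wells below, Lifr had a log2 change of -0.97 ± 0.32 (edgeR adjusted p = 1.0). The difference of log2 changes was 1.98 ± 0.30 (SE, edgeR adjusted p = 0.0342). With the division at 100 CPM of Ehd3 it found 0 genes (789 at an unadjusted p under 0.05). Lrg1 had means of 35.6 to 359 CPM in the wells at or above and 14.1 to 395 CPM in the wells below, and Stat3 215 to 486 CPM and 288 to 462 CPM. Of the wells holding Serpina3n at day 2, 38 were among 251 at or above and 2 among 117 below, while Abca1 was held by 22.3% and 62.4% of those wells.

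The mesenchyme gate of the same plates (364 uninjured and 366 day 2 wells kept) shows which changes differed by gate. The interaction of gate and day 2 passed for 11 of 16116 genes (0.0683%), 3 with a higher change in the endothelia gate (0.0186%) and 8 with a lower one (0.0496%). That fit took both gates' sums of a number and condition as independent within the number block, though the same mouse was assumed to give both. Ltbp1, 3.26-fold lower at day 2 in endothelia by the fit, was at 386 to 721 CPM uninjured and 666 to 979 CPM at day 2 in the mesenchyme gate, and the log2 changes differed by -2.19 ± 0.36 (SE, edgeR adjusted p = 0.0191). Sparcl1, a matrix protein of vessels, was at 356, 412, 720.0 and 476 CPM uninjured and 213, 266, 325 and 278 CPM at day 2 in endothelia. It was at 5161 to 6881 CPM uninjured and 10741 to 11576 CPM at day 2 in mesenchyme (-1.73 ± 0.27 (SE, edgeR adjusted p = 0.0155)). Ltbp3, another latent TGF-beta binding protein, was at 10.3, 18.3, 19.8 and 22.2 and 23, 32.5, 62.6 and 39.1 CPM in endothelia. It was at 94 to 231 CPM uninjured and 45.7 to 92.3 CPM at day 2 in mesenchyme (1.98 ± 0.34 (SE, edgeR adjusted p = 0.0215)). Thus 2 latent TGF-beta binding proteins differed between the gates in opposite directions.

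Ssh2, a phosphatase of the actin regulator cofilin, gave 2.51 ± 0.46 (SE, edgeR adjusted p = 0.0492), from 35.6 ± 9.75 to 61.5 ± 9.61 CPM in endothelia (SD, n = 4) and 41.9 to 13.3 CPM in mesenchyme. The 4 largest differences rest on levels near 0 in 1 gate and are given by values. Slc16a7, Tmem35 and Scn4b lay at most at 10.6 CPM in any uninjured endothelia sum and at most at 0.0743 CPM at day 2, and at 17.5 CPM or more in every uninjured mesenchyme sum. Trim16 lay at 65.8, 157, 102 and 84.2 CPM in the day 2 endothelia sums and at most at 4.15 CPM in mesenchyme. The part of mesenchymal RNA in these endothelia sums, whose mesenchyme markers summed to 127, 869, 62.3 and 63.7 CPM uninjured and 113, 34, 433 and 198 CPM at day 2, was not tested. Of the 21 genes, none passed this interaction. Serpina3n rose in the mesenchyme gate too, from a mean of 0.796 to 208 CPM, with a fitted log2 change of 8.74 ± 0.98 (edgeR adjusted p = 0.00303). Stat3 changed by 1.67 ± 0.14 in the mesenchyme gate (edgeR adjusted p = 0.00303). Serpine2 (0.73, 0.0103), Emilin1 (1.25, 0.0188), Litaf (1.00, 0.0494), Tmem176b (0.93, 0.0489) and Gas6 (-1.13, 0.0398) also passed the threshold there, in the same direction (log2 change, edgeR adjusted p). Among those that did not were Lrg1 (4.34, 0.423), Col4a2 (0.07, 0.86) and Armcx1 (-0.02, 0.992). The value of Lrg1 rests on mesenchyme means of 0.429 CPM uninjured and 4.91 CPM at day 2 and is no measure of size. Tgfb2 had a change there of -0.13 ± 0.24 (edgeR adjusted p = 0.91; interaction adjusted p = 0.0954).

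The day 10 sums of the same gate, which entered the fit for its estimate of spread, are given as levels without a test. Lrg1 stood at 87.5, 127, 239.9 and 193 CPM at day 10, Stat3 at 313, 337, 274 and 305 CPM and Serpina3n at 15.7, 16.9, 0.109 and 17.8 CPM. Each of these day 10 sums lay below every day 2 sum of its gene. Tgfb2 stood at 25, 25.6, 35.8 and 46.6 CPM, Rsad2 at 243, 440.0, 369 and 559.8 CPM and Cmpk2 at 64, 104, 84.2 and 149 CPM, with day 10 means between those of day 2 and uninjured kidneys. The other genes that fell had day 10 means below those of day 2, with Gas6 at 248 ± 113 against 314 CPM and Tinagl1 at 521 ± 253 against 538 CPM (SD, n = 4). Litaf, at 1235 ± 176 CPM, and Gda, at 172 ± 65.5 CPM (SD, n = 4), had day 10 means above those of day 2.

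Promoters are shown for the 3 genes of largest rise with an entry in the RefSeq promoter table (GRCm38.p6, 250 bases before to 50 after the start), and for Casp4, Tnfaip8l1 and Rsad2, chosen afterwards because they hold a searched motif. They are written 5′ to 3′ on the gene's strand, with matches in capitals.
Serpina3n (chr12:104406458-104406757, plus strand): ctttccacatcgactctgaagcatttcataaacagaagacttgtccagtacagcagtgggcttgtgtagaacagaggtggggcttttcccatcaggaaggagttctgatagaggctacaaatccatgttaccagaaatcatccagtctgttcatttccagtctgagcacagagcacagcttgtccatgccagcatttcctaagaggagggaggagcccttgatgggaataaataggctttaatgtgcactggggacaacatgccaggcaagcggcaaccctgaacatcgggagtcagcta
Lrg1 (chr17:56121897-56122196, minus strand): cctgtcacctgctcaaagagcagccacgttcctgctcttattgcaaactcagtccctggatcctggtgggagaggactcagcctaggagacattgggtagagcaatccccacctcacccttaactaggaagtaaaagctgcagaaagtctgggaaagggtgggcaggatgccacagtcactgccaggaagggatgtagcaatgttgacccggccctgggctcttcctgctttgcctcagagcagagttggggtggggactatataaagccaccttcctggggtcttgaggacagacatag
Serpine2 (chr1:79858616-79858915, minus strand): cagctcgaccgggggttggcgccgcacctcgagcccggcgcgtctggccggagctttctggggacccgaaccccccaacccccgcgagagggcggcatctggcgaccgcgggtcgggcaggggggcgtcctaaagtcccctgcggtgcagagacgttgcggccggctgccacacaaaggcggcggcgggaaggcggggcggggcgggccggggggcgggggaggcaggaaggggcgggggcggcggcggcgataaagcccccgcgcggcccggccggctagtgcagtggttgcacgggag
Casp4 (chr9:5308599-5308898, plus strand): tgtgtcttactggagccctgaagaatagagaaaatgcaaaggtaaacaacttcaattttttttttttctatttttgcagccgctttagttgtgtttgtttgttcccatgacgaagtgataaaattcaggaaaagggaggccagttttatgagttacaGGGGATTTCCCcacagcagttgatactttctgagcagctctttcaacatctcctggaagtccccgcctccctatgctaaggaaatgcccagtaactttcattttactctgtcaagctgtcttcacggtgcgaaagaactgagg
Tnfaip8l1 (chr17:56162241-56162540, plus strand): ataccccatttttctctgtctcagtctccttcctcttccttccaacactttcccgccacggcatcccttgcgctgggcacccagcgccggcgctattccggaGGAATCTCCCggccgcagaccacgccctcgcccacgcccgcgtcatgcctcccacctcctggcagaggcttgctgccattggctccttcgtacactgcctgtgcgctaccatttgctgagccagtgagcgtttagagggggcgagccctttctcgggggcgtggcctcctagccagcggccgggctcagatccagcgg
Rsad2 (chr12:26456403-26456702, minus strand): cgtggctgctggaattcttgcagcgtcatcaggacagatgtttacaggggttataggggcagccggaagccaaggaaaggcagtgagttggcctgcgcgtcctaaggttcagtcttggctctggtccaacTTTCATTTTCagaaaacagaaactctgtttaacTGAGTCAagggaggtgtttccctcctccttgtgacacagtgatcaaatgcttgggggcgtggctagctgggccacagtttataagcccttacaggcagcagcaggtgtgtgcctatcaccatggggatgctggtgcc
Both strands were searched for the STAT motif TTCNNNGAA, the AP-1 motif TGANTCA, the kappaB consensus and, added after the values were seen, the core of the interferon-stimulated response element (GAAA, any 2 bases, GAAA). Of the 16 genes that rose, 14 had an entry. TTCNNNGAA was in 0 of the 14, and in 8.30% of all promoters of this length (6.93% of those of genes tested). The kappaB consensus was in Casp4 (a pair of overlapping matches), Tnfaip8l1 and Tmem176b, 3 of 14 genes, against 644 of the 10440 tested genes with an entry. It was in 4.51% of all promoters and 5.16% of those of genes tested. Rsad2 held the interferon element's core, read on the other strand, and TGANTCA, which are in 3.44% and 7.81% of all promoters and in 2.98% and 5.19% of those of genes tested. Tinagl1 held TGANTCA, and all 5 genes that fell had an entry. A match describes letters in the window and no binding.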

How the data were processed

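The deposited values are raw counts of reads per gene and well, with counts of 92 ERCC spike-in sequences and a layout of well labels. Per the submitters' processing notes the authors used STAR and mm10; the counting tool, annotation and use of strand are not given in the sources used here. The 24490 entries were added per symbol to 23998 symbols. Wells of at least 1000 genes and 20000 reads were summed per number and condition. Genes passing filterByExpr were scaled by TMM and tested in edgeR 4.0.16 (R 4.3.3, limma 3.58.1) by quasi-likelihood F tests in 1 fit of the 12 endothelia sums with the number as a block, because the wells of a number share plates. Same-numbered uninjured and day 2 sums deviated together only weakly (r of 0.0247, 0.0978, 0.118 and 0.0648 across genes for numbers 1 to 4). The highest r with a day 2 sum of another number was 0.103, -0.0217, 0.0109 and 0.0535. For number 1 it was above the same-number value. SE was taken as the size of a change divided by the root of its F value. The gate interaction used 24 sums. It and the Ehd3 class interaction had the number as a block and no term for the mouse. The code was tested on simulated data.

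The members and the 31 gene lists were chosen with earlier results of these data known. Named were called genes (up to 15 in each direction by size, mean log2 CPM of at least 4, 1 sign in all 4 numbers), up to 10 further genes of smallest p, the 2 to 4 members of smallest p of lists in which at least 25% of members reached an unadjusted p under 0.05, and the differences between gates and classes. That 25%, and where within 2 to 4, were set after the values were seen. Names with Gm and a number, Rik or -ps were passed over. Alternatives included DESeq2 1.42.0. Day 10 and mesenchyme wells serve as context. Doublets were not called.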

Additional observations from a re-analysis of the deposited data

Results flagged for a closer look

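Among 230 groups of 4 sums looked at, 15 had a highest or lowest sum whose gap to the nearest other was above Dixon's 95% critical value, and chance flags about 1 in 20 groups. Of called genes, this held for Armcx1 in uninjured number 2 (129 CPM, others 51.8 to 59.9), Stat3 in day 2 number 2 (572 CPM, others 462 to 470), Col4a2 in day 2 number 3 (1176 CPM, others 691 to 738) and Tinagl1 in uninjured number 3 (1495 CPM, others 996 to 1078). Of other named genes, it held for Mtmr11 in day 2 number 2 (136 CPM), Cxcl10 in day 2 number 2 (117 CPM), Cx3cl1 in uninjured number 4 (209 CPM), H2-T23 in day 2 number 3 (273 CPM), C3 in uninjured number 4 (1.06 CPM) and day 2 number 2 (57 CPM), Ltbp1 in uninjured number 4 (206 CPM) and Pdgfb in day 2 number 3 (227 CPM). Of the measures of make-up, it held for the share of wells kept at day 2 number 1 (89.1%, others 98.4 to 100%), the lymphatic markers of uninjured number 4 (50.1 CPM, others 0.0856 to 2.97) and the mesenchyme markers of uninjured number 2 (869 CPM, others 62.3 to 127). Number 2 gave 6 of these sums, on plate 3.

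The day 2 change differed between the gates by the interaction test for Ssh2 (2.51 on the log2 scale, endothelia minus mesenchyme), Ltbp3 (1.98), Ltbp1 (-2.19), Sparcl1 (-1.73), Slc16a7 (-7.73), Tmem35 (-6.96), Scn4b (-6.19) and Trim16 (-5.98). The last 4 are fitted values against levels near 0 and are no measure of size. Between wells at or above and below 10 CPM of Ehd3, it differed for Lifr (1.98).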

How the results depend on the processing

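The count of called genes at day 2 (21) was 439 with DESeq2, 65 without a filter on low counts, 12 with no replicate block (11 of the 21 among them), 2 with only the 8 day 2 and uninjured sums, 122 with sums per plate, 60 with wells thinned to 20000 reads, 34 without wells of other cell types, 0 in wells below 10 CPM of Ehd3 and, in alternatives chosen after seeing the data, 0 without wells of at least 100 CPM of tubule markers and 79 with mean CPM over wells and limma. Left-out numbers gave 0 to 11, and without plates 1, 2, 3, 4 and 6 it was 13, 9, 11, 3 and 13. Across 24 alternatives the 21 genes had 504 values, of which 290 passed the threshold, 214 did not and 0 changed direction. Leaving out plate 3 or plate 4 is the same fit as leaving out number 2 or number 3, so the values of these fits are counted under both. The gate interaction (11) gave 332 with DESeq2, 7 with no replicate block and 0 to 5 with a number left out, and the Ehd3 class interaction (1) gave 0 with the division at 100 CPM. The cause of these differences was not tested.

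Genes not called changed direction as follows, in log2: in wells below 10 CPM of Ehd3 Tmem176a (-0.0727), Cx3cl1 (-0.48), Rela (-0.0266), Psmb9 (0.21), Lpl (-0.66), Msmo1 (1.84), Mapt (0.41), Hey1 (-0.29), Slco2a1 (-0.49), Ehd3 (-0.77, no result, as these wells were chosen by its level), Lifr (-0.97). In wells at or above it Igfbp7 (-0.59), Pecam1 (0.22), Cdh5 (-0.0213), Kdr (0.0383), Plvap (-0.38). Without wells holding tubule markers Pecam1 (0.0127), Cdh5 (-0.0694), Plvap (-0.11). With sums per plate Cdh5 (-0.0255), Ehd3 (-0.0834). Without plate 3 Cdh5 (-0.0293), Ehd3 (-0.26). Without wells of other cell types Kdr (0.00437). Without plate 4 Kdr (0.11). With mean CPM over wells Plvap (-0.00999). With each number left out in turn, the changes took both signs in some genes. They ran from -0.0293 to 0.16 for Cdh5, -0.26 to 0.24 for Ehd3, -0.41 to 0.11 for Kdr, -0.12 to 0.0108 for Pecam1, -0.11 to 0.30 for Plvap. The day 2 minus uninjured difference in make-up took the other sign for percent of wells holding Plvap (-1.77, wells of at least 2000 genes and 100000 reads), percent of wells holding Ehd3 (1.43, a well holds a gene from 100 CPM), percent of wells holding Pecam1 (0.173, a well holds a gene from 100 CPM). The values of genes held by few wells, such as C3, rest on few cells whatever the total reads.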

Other observations

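A few members of lists with no call stood out after their values were seen. The metallothioneins Mt1 and Mt2, which bind zinc and copper, had mean levels of 23.8 to 69.3 CPM and 2.48 to 13.3 CPM from uninjured to day 2, with log2 changes of 1.44 ± 0.34 (0.174) and 2.56 ± 1.05 (0.526) (SE, edgeR adjusted p in brackets), and their sums did not overlap. The replication helicase subunits Mcm3 and Mcm6 were higher at 0.92 ± 0.26 (0.284) and 0.68 ± 0.25 (0.478), while the proliferation markers Mki67 (18.8 to 2.15 CPM) and Cenpf (9.25 to 0.83 CPM) were lower at -3.09 ± 1.03 (0.401) and -3.45 ± 1.23 (0.451). None of these passed the threshold.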
